A study of Mus musculus with 36 samples.

Results

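The 10 genes described here, of 46603 in the count tables, are active mainly in germ cells and were followed in the embryonic mouse forebrain with normal or lowered Chd8, which encodes a chromatin remodelling enzyme. Zcwpw1, Gpat2, D1Pas1 and Wbp2nl were picked because their counts rose in Chd8 mutants, so their rise is described below and is not a test. Dazl, Ddx4, Mael, Sycp1, Sycp3 and Slc25a31 were taken as known germline genes. RNA was sequenced from neocortices at E12.5, 1 embryo per library, of embryos that were Chd8 +/+ (wild type), Chd8 +/- (heterozygous for a null), Chd8 neo/neo or, with one neo and one null allele, Chd8 neo/-, and from telencephalic vesicles at E10.5, 2 embryos pooled per library, of cKO embryos (sox1-Cre; Chd8f/f) and their controls. The E10.5 controls (Ctrl) are all labelled Chd8f/f / Chd8 f/+, with no statement of which embryos were which. The study's methods name Chd8f/f embryos as controls. Either way both E10.5 groups carried the loxP-flanked allele and cKO alone the Cre, which the Sox1 locus drives in the early neural plate. All animals were C57Bl/6J, and each group had 3 libraries, each the sum of 2 sequencing runs. The - allele is a null made with a broadly expressed actin-driven Cre, and the neo allele keeps a selection cassette behind exon 3 that lowers Chd8 output. The neo line descends from 2 embryonic stem cell clones. The 3 E12.5 mutant groups were all compared with the same 3 Chd8 +/+ libraries, so those comparisons are not independent of each other.

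Germline genes are used in the production of eggs and sperm, in meiosis, and in the silencing of transposons by piRNAs, a class of small RNAs bound by PIWI proteins. In somatic cells most of them are kept off by DNA methylation of CpG-rich promoters, by H3K9 methyltransferases, and by a Polycomb complex (PRC1.6) that reaches its targets through E2F6 and through MGA with MAX. E2F6 binds sites with the core TCCCGC, and MGA with MAX binds the E-box CACGTG. Brain tissue is known for the near absence of most of these transcripts.

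Promoter sequence was examined first, because it is where this silencing acts. Windows from 250 bases before to 50 bases after the start of each gene were taken from RefSeq's annotation of GRCm38.p6, and 9 of the 10 genes had one. Both motifs were searched on both strands. CACGTG is its own reverse complement, and a site of either motif can share at most 1 base with a site of the other. TCCCGC (or its reverse complement GCGGGA) was present in 2 of 3 picked genes with a window (Gpat2 and D1Pas1) and in 5 of 6 known genes (all but Dazl), against 19.98% of 32851 windows. CACGTG was in 0 of 3 picked genes and in 5 of 6 known genes (all but Dazl), against 7.15% of all windows. Among the windows of the other listed germline genes, many held neither motif, so the 9 genes do not stand for the lists. A match of letters does not show a bound site, and its absence says nothing about the factor. The ratio of observed to expected CpG was above the median of all windows, 0.384, in each of the 9 genes, from 0.577 in Gpat2 to 1.06 in Zcwpw1. Of the windows, 5 follow, the 3 picked genes and a pair of known genes with both motifs, with TCCCGC or GCGGGA and CACGTG in capitals. They lie at chr5:137787552-137787851 on the plus strand for Zcwpw1, chr2:127424949-127425248 on the plus strand for Gpat2, chr1:186967166-186967465 on the plus strand for D1Pas1, chr1:166238695-166238994 on the minus strand for Mael and chr10:88459337-88459636 on the plus strand for Sycp3.
Zcwpw1: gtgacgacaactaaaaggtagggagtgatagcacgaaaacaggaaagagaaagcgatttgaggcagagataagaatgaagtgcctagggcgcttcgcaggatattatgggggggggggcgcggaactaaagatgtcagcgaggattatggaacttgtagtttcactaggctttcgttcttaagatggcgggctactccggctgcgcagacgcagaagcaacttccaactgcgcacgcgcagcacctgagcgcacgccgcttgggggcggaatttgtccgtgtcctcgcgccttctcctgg
Gpat2: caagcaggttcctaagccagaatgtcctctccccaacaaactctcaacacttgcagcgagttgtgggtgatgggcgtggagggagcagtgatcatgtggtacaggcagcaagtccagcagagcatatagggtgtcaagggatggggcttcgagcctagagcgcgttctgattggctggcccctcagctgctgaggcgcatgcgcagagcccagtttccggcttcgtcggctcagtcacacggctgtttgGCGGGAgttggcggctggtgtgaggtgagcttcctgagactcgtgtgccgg
D1Pas1: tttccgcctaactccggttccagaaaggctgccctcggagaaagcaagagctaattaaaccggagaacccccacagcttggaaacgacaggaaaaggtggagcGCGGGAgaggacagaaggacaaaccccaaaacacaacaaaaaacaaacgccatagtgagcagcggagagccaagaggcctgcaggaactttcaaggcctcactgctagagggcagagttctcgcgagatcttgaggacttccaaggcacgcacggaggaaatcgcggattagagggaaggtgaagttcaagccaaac
Mael: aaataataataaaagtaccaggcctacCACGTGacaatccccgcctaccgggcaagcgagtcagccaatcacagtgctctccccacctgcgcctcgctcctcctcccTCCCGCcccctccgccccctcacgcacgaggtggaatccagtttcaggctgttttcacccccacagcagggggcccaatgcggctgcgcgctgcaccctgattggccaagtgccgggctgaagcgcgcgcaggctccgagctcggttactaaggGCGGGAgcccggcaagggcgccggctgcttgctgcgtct
Sycp3: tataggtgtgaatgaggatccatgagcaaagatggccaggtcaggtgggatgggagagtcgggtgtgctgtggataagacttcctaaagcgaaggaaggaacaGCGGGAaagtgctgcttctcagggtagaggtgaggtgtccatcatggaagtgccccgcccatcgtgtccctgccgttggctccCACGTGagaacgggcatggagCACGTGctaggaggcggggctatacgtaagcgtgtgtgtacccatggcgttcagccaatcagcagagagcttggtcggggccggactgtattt

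Zcwpw1 encodes a reader of histone methylation that helps repair the DNA breaks of meiosis, and it was the most abundant of the 10 genes. It lies on chr5:137787798-137822621 (GRCm38, plus strand, 17 exons). In counts-per-million scaled by TMM, a factor that evens out library composition (CPM), its level in the Chd8 +/+ libraries was 9.16, 10.1 and 8.73. It was 13.2, 13.3 and 15.2 in Chd8 +/-, 19.2, 20.5 and 19.8 in Chd8 neo/neo, and 29.03, 26.6 and 27.1 in Chd8 neo/-. No library of any genotype overlapped with those of another genotype, and the means rose in the order +/+, +/-, neo/neo, neo/-. Chd8 +/+ had a mean of 9.33 ± 0.697 and Chd8 neo/- one of 27.6 ± 1.28 CPM (SD, n = 3 each). As a description, the fitted log2 difference from Chd8 +/+ was 0.58 in +/-, 1.09 in neo/neo and 1.56 in neo/-. Of all 75-base windows in its transcripts, 7.079% were shared with another gene, mainly Pilra on the opposite strand, and reads were counted without strand.

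Gpat2 encodes a mitochondrial acyltransferase found mainly in testis that takes part in piRNA production. It lies on chr2:127425199-127436092 (plus strand, 22 exons) and shared no window with another gene. The Chd8 +/+ libraries stood at 0.489, 0.543 and 0.489 CPM, and the +/- libraries at 0.651, 0.614 and 0.650. Among the neo/neo libraries it reached 0.897, 0.942 and 0.678 CPM, and among the neo/- libraries 1.34, 2.36 and 1.68. As with Zcwpw1, the 4 genotypes did not overlap. The step was largest between neo/neo and neo/-, from a mean of 0.839 ± 0.141 to 1.79 ± 0.516 CPM (SD, n = 3 each), and the 3 neo/- libraries were also the most spread. The counts behind these values were 23 to 25 reads per +/+ library and 62 to 132 per neo/- library.

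D1Pas1 is an intronless autosomal copy of the X-linked RNA helicase gene Ddx3x, used in spermatocytes. It lies on chr1:186967416-186970627 (plus strand, 1 exon). It had 0, 5 and 3 reads in the Chd8 +/+ libraries, 4, 10 and 10 in +/-, 9, 13 and 20 in neo/neo, and 22, 31 and 20 in neo/-. The +/- libraries overlapped with +/+, and the libraries of the other mutant genotypes did not. Since the controls were close to 0, the change is given as a ratio of counts with an exact 95% interval, which covers counting error only. Against Chd8 +/+ the ratio was 3.24 (1.41 to 8.35) in +/-, 4.73 (2.19 to 11.7) in neo/neo and 8.56 (4.12 to 20.6) in neo/-, given as a description since the gene was picked for it. Ddx3x itself had a mean of 830.0 CPM in the controls and 765.0 in neo/-, so D1Pas1 was at 0.00730% of it in the first and 0.0632% in the second. D1Pas1 shared no 75-base window with Ddx3x or the Y-linked Ddx3y, and 3.633% of its windows with Gm37912 on the opposite strand.

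Wbp2nl encodes a WW-domain-binding protein of the sperm head. It lies on chr15:82298984-82314558 (plus strand, 6 exons) and shared no window with another gene. It had 3, 0 and 2 reads in the Chd8 +/+ libraries, 1, 3 and 7 in +/-, 8, 22 and 14 in neo/neo, and 17, 23 and 25 in neo/-. Here too +/- overlapped with +/+ and the other mutant genotypes did not. The ratio to Chd8 +/+ was 2.38 (exact 95% interval 0.762 to 8.73) in +/-, 7.93 (3.15 to 25.6) in neo/neo and 12.2 (4.97 to 38.8) in neo/-. Its widely expressed paralog Wbp2 rose too, by a log2 difference of 0.27 in Chd8 neo/- (adjusted p = 0.00995, edgeR quasi-likelihood test with Benjamini-Hochberg adjustment). That call ended without Chd8 +/+ 1 or Chd8 neo/- 1 (adjusted p 0.0532 to 0.0647). In cKO Wbp2 was called as well (0.24, adjusted p = 0.0385), and that call ended when any library but Ctrl 2 was left out (0.0817 to 0.152). Wbp2nl went from 0.0383% of the CPM of Wbp2 in Chd8 +/+ to 0.410% in Chd8 neo/-.

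**Figure D1:**
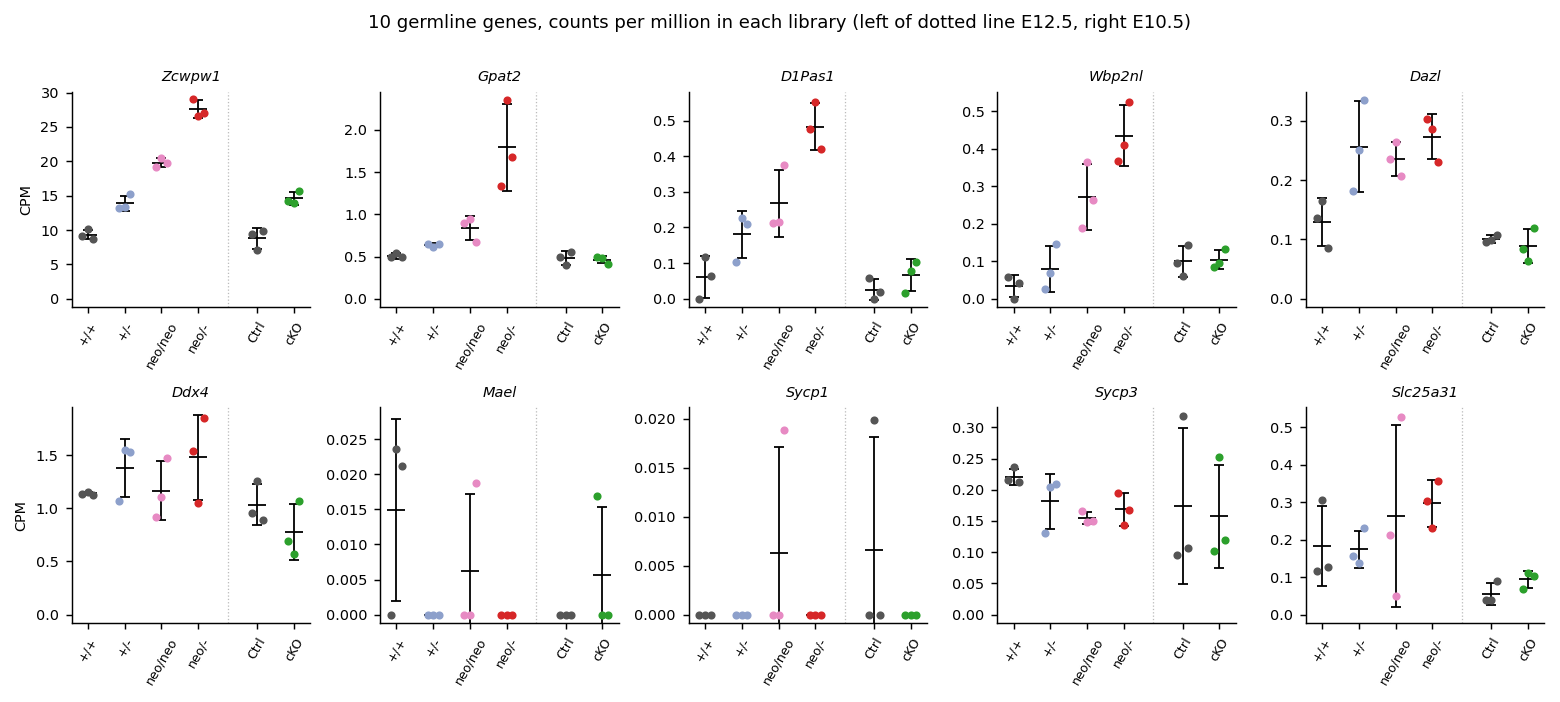
CPM (counts-per-million, TMM-scaled, linear axis from 0, a separate range per gene) of the 10 genes in each library, with 3 points per group and bars for the mean ± SD, cut off at the axis where they pass below 0. Zcwpw1, Gpat2, D1Pas1 and Wbp2nl climb from Chd8 +/+ to Chd8 neo/-, Zcwpw1 from 9.33 to 27.6 CPM, while at E10.5 the 3 cKO libraries lie above all Ctrl libraries for Zcwpw1 and no other of the 10.

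The group means of all 4 picked genes rose in the order +/+, +/-, neo/neo, neo/-, and those of none of the 6 known genes did. Since the 4 were picked for their rise, nothing is read from this contrast. Mael and Sycp1 had too few reads to show an order, and the share of all genes with that order was not computed. Chd8 RNA itself followed another order. Its mean was 237.0 CPM in Chd8 +/+, 208.8 in neo/neo, 166.6 in +/- and 149.0 in neo/-, so the neo/neo libraries held more Chd8 reads than the +/- libraries. A read count over the gene does not measure how much protein each allele gives. The difference of Chd8 from its controls passed the test in all 3 E12.5 mutant groups and in cKO (121 against 171 CPM, log2 difference -0.50). In neo/neo that call ended without Chd8 +/+ 2, Chd8 +/+ 3 or Chd8 neo/neo 2 (adjusted p 0.0650 to 0.0987).

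The E10.5 libraries show the 4 picked genes in another setting, with Chd8 deleted by a Cre of the neural lineage. Which comparison the rise was first seen in is not known, so these values are not taken as independent of the choice. Zcwpw1 was at 9.46, 7.03 and 9.91 CPM in Ctrl and at 14.3, 13.9 and 15.6 CPM in cKO, with no overlap. As a description, its fitted log2 difference was 0.73 ± 0.12 (SE), and 0.594 to 0.823 over the alternatives run. Gpat2 did not follow. It was at 0.497, 0.398 and 0.554 CPM in Ctrl and at 0.489, 0.488 and 0.416 CPM in cKO. The log2 difference of Gpat2 was -0.06 ± 0.24 (SE; adjusted p = 0.895, edgeR), and the sign of this small value turned in 3 alternatives. D1Pas1 had 3, 0 and 1 reads in Ctrl and 1, 5 and 7 in cKO, a ratio of 2.71 (exact 95% interval 0.837 to 11.4). Wbp2nl had 5, 3 and 8 reads in Ctrl and 5, 6 and 9 in cKO, a ratio of 1.04 (0.513 to 2.15). Both genes had too few reads for the fit across genes, and both intervals include 1. The E12.5 and E10.5 libraries differed in stage, tissue, allele and pooling and were normalised separately, so no test was made between them.

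Among the known germline genes, Dazl and Ddx4 encode RNA-binding proteins that mark germ cells, a translational regulator and the helicase of germ granules. Dazl (chr17:50279394-50293599, minus strand, 11 exons) had 7, 7 and 4 reads in Chd8 +/+, 7, 11 and 16 in +/-, 10, 16 and 11 in neo/neo, and 14, 16 and 11 in neo/-. In CPM, every mutant library lay above the 3 Chd8 +/+ libraries, whose mean was 0.129 ± 0.0406 CPM (SD, n = 3). None of the differences passed the test across all genes. The log2 difference was 1.01 ± 0.36 (SE) in +/- (adjusted p = 0.695), 0.87 ± 0.36 in neo/neo (adjusted p = 0.147) and 1.08 ± 0.35 in neo/- (adjusted p = 0.0639). Dazl entered the fit only through its mutant libraries. At E10.5 it had 5, 5 and 6 reads in Ctrl and 5, 4 and 8 in cKO, a ratio of 0.885 (exact 95% interval 0.421 to 1.87).

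Ddx4 (chr13:112598333-112652310, minus strand, 22 exons) was detected in all 18 libraries, and its groups overlapped in every comparison. It was at 1.14, 1.16 and 1.13 CPM in Chd8 +/+, at 1.07, 1.55 and 1.53 in +/-, at 0.921, 1.11 and 1.47 in neo/neo and at 1.54, 1.05 and 1.85 in neo/-. The log2 difference of neo/- from +/+ was 0.37 ± 0.23 (SE; adjusted p = 0.333). In cKO it was -0.41 ± 0.26 (adjusted p = 0.336), with 0.955, 1.25 and 0.894 CPM in Ctrl and 0.691, 0.567 and 1.07 CPM in cKO.

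Slc25a31 encodes the ADP/ATP carrier of sperm mitochondria (chr3:40708855-40726096, plus strand, 6 exons). It had 6, 13 and 6 reads in Chd8 +/+, 6, 6 and 11 in +/-, 9, 3 and 28 in neo/neo, and 14, 13 and 17 in neo/-. The neo/neo libraries held both the lowest and the highest count, and every mutant group overlapped with Chd8 +/+. In CPM the 3 neo/- libraries all lay above the 3 +/- libraries, but the nearest values were 0.232 and 0.2305 CPM (13 and 11 reads). That pair of groups was not tested, and the share of all genes that separate there was not computed, so nothing is read from it. The log2 difference of neo/- from +/+ was 0.71 ± 0.62 (SE; adjusted p = 0.518). At E10.5 the reads were 2, 2 and 5 in Ctrl and 4, 7 and 7 in cKO, a ratio of 1.67 (exact 95% interval 0.711 to 4.21).

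Sycp1 and Sycp3 encode parts of the synaptonemal complex that pairs chromosomes in meiosis, and Mael a piRNA pathway protein. Mael (chr1:166201201-166238747, minus strand, 12 exons) had 2 reads in all in Chd8 +/+, 1 in neo/neo, 1 in cKO and 0 in the other groups. Sycp1 (chr3:102818499-102936100, minus strand, 34 exons) had 1 read in neo/neo, 1 in Ctrl and 0 elsewhere. Neither gene was therefore detected in the mutant forebrain beyond single reads, against what its place among the detected genes would imply, and neither could be tested. Sycp3 (chr10:88459569-88473236, plus strand, 8 exons) had 5 to 11 reads in every E12.5 library. Its 3 Chd8 +/+ libraries lay above all 9 mutant libraries (mean 0.221 CPM against 0.182 in +/-, 0.155 in neo/neo and 0.169 in neo/-). How many of all genes separate in this way was not computed. The ratio of neo/- to +/+ was 0.757 (exact 95% interval 0.428 to 1.32), so a difference was not detectable at this depth. Sycp3 lies within Chpt1 on the opposite strand and shared 38.416% of its windows with other genes, mainly Chpt1. Reads over exons of both genes were left out of the E12.5 counts, and unspliced Chpt1 RNA cannot be told apart from Sycp3.

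The 10 genes can be set against each other only per length. In Chd8 +/+ the order by CPM divided by the exon length in kilobases (RPKM) was Zcwpw1 at 1.64, Ddx4 at 0.3998, Gpat2 at 0.193, Sycp3 at 0.175 and Slc25a31 at 0.0864, with the others lower. Gpat2 and Sycp3, and each neighbour in that order from Slc25a31 down to Mael, differed by less than the sum of their SDs. In Chd8 neo/- Zcwpw1 stood at 4.84 RPKM, Gpat2 had passed Ddx4 (0.682 against 0.519, less than the sum of their SDs), and Wbp2nl had moved to the fourth place at 0.330. The median of all genes tested was 4.08 RPKM in Chd8 +/+ and 4.06 in Chd8 neo/-, and the lowest 10% of them lay under 0.194 RPKM in neo/-. In Chd8 neo/-, Zcwpw1 was the only one of the 10 above that median.

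Counted against the background, 7 of the 10 genes had enough reads to be tested at E12.5 and 3 at E10.5. D1Pas1, Wbp2nl, Dazl and Slc25a31 would not have passed that filter on their Chd8 +/+ libraries alone. In Chd8 neo/- against Chd8 +/+, 11.5% of all 18810 genes tested were called at an adjusted p below 0.05, and 5.48% were called higher. All 3 neo/- libraries lay above all 3 controls for 5 of the 10 genes (the 4 picked ones and Dazl), against 16.4% of the genes tested, and nothing is read from this since 4 of them were picked for it. In neo/neo against +/+ the background was 8.16% called and 3.71% called higher, and in +/- against +/+ it was 0.0213% called. Of the 3 known germline genes tested, 0 were called in each of these comparisons by edgeR, and 1 (Dazl) had an unadjusted p below 0.05 in each. DESeq2 called 0 of the 3 as well, but for Dazl and Slc25a31 it gave an adjusted p in +/- alone. In cKO against Ctrl 11.4% of 18435 genes were called and 5.75% called higher, and 15.7% had all 3 cKO libraries above all 3 controls, as 1 of the 10 genes did (Zcwpw1). The known gene tested there, Ddx4, was called by neither tool and had an unadjusted p above 0.05. Between the mutants, 5.28% of genes were called in neo/neo against +/- and 0.0159% in neo/- against neo/neo, and in both 0 of the 3 known genes tested were called by edgeR or had an unadjusted p below 0.05. DESeq2 called 0 there, with no adjusted p for 2 of the 3 in the first comparison and for all 3 in the second.

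The other genes of the germ line were taken from 5 lists (piRNA pathway, meiotic axis, recombination, germ cell specification, and spermatid, sperm and egg), which hold 82 genes with a row beyond the 10. Of these, 39 had enough reads to be tested at E12.5 and 35 at E10.5, and 26 were at or under 3 reads in every E12.5 library. In Chd8 neo/-, 8 of the 39 were called higher and 1 lower, which is 23.1% of those tested against 11.5% of all genes, and 30 did not pass. Of the 8, Rnf212 would not have passed the filter on its Chd8 +/+ libraries alone, so its call is not counted as support. The 23.1% still includes it. DESeq2 called 7 of the 39, and gave no adjusted p for 19. Their median log2 difference was 0.07, against 0.0011 over all genes tested. In neo/neo 3 were called higher and 1 lower (10.3%, near the 8.16% of all genes), and in +/- 0 were called by edgeR and DESeq2, with 4 at an unadjusted p below 0.05. In cKO 4 were called higher and 2 lower (17.1%, against 11.4% of all genes), with a median of -0.13, and 24 of the 35 log2 values were below 0. The median of cKO was thus below 0 while more genes were called higher than lower. These shares describe the lists, and whether they stand apart from the background was not tested.

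**Figure D2:**
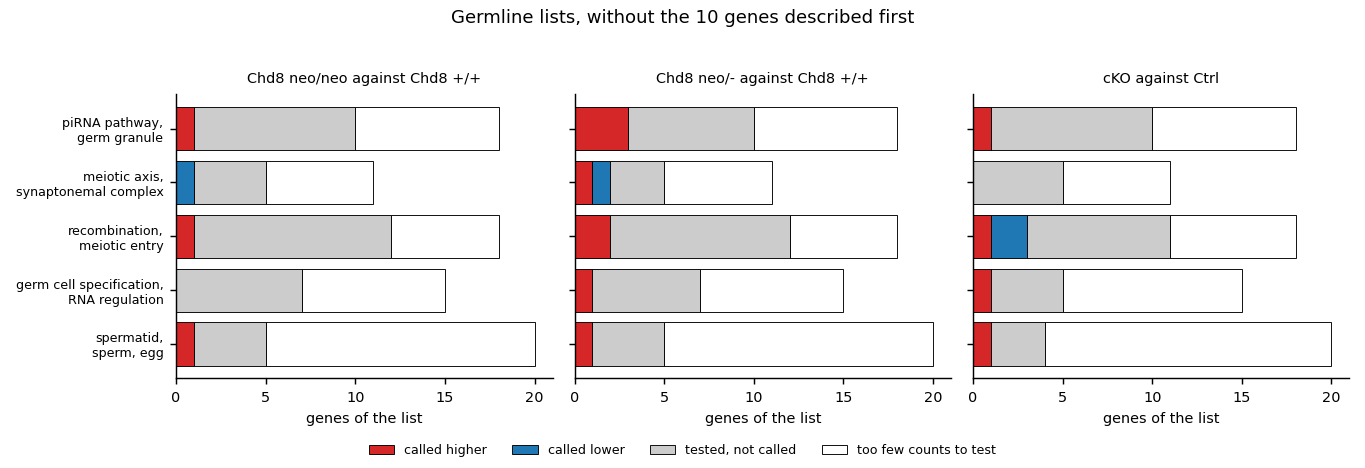
Number of genes in each of 5 germline lists (the 10 genes left out) that were called higher, called lower, tested but not called, or had too few counts to test, in Chd8 neo/neo and Chd8 neo/- against Chd8 +/+ and in cKO against Ctrl. In Chd8 neo/-, 8 genes were called higher and 1 lower across the lists, and in each panel most genes were either not called or too low to test. Of the 8, Rnf212 would not have passed the filter on its Chd8 +/+ libraries alone.

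In the piRNA pathway list, Rnf17, a tudor protein of germ granules, was called higher in neo/- (log2 difference 1.09 ± 0.25 SE, adjusted p = 0.0120). Tdrd1, a scaffold of PIWI proteins, had a log2 difference of 0.94 (adjusted p = 0.0373), and Tdrkh, which recruits PIWI proteins to mitochondria, one of 0.16 (adjusted p = 0.0352). Tdrkh was already expressed in the wild type, with a mean of 63.1 CPM in Chd8 +/+ and 70.4 in neo/-. Its 10.3 RPKM in Chd8 +/+ lay above the median of all genes tested, 4.08. In the meiotic axis list, the cohesin genes Smc1b and Rec8 went opposite ways. Smc1b had a log2 difference of 0.82 (adjusted p = 0.0302) and Rec8 of -0.88 ± 0.12 SE (adjusted p = 0.000535). Rec8 was at 9.25, 9.84 and 8.90 CPM in Chd8 +/+, at 5.55, 5.55 and 7.72 in neo/neo and at 4.82, 4.78 and 5.59 in neo/-. In the recombination list, Msh5, a MutS protein of crossovers, rose by 0.74 ± 0.14 SE (adjusted p = 0.00401), and Rnf212, a crossover factor, had a difference of 1.26 (adjusted p = 0.0294), with 12, 8 and 9 reads in Chd8 +/+ and 17, 35 and 23 in neo/-. Rbm46, an RNA-binding protein needed for meiosis, rose by 0.90 ± 0.21 SE (adjusted p = 0.0139). Gdf9, a growth factor of the oocyte, rose by 1.16 ± 0.22 SE (adjusted p = 0.00500). The calls of Rec8, Msh5 and Rnf17 in neo/- held in each alternative run. That of Tdrd1 ended when any 1 of the 6 libraries compared was left out (adjusted p 0.0513 to 0.135), that of Tdrkh without Chd8 +/+ 1, Chd8 +/+ 3 or any single neo/- library (0.0634 to 0.117), and that of Smc1b without Chd8 +/+ 1, Chd8 +/+ 2, neo/- 1 or neo/- 2 (0.0812 to 0.123). The call of Rnf212 ended without any single Chd8 +/+ library, neo/- 2 or neo/- 3 (0.0599 to 0.138), and that of Rbm46 without Chd8 +/+ 3 or neo/- 1 (0.0578 to 0.0585).

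In Chd8 neo/neo the genes called were Rnf17 (log2 difference 0.96, adjusted p = 0.0306), Msh5 (0.67, 0.0118) and Gdf9 (0.93, 0.0237), all higher, and Rec8 (-0.57, 0.0123), lower. The call of Rnf17 ended without Chd8 +/+ 2, Chd8 +/+ 3, neo/neo 1 or neo/neo 2 (adjusted p 0.0718 to 0.134). That of Gdf9 ended without Chd8 +/+ 1, Chd8 +/+ 2, neo/neo 1 or neo/neo 2 (0.0604 to 0.0904), and that of Rec8 without Chd8 +/+ 2, neo/neo 1 or neo/neo 2 (0.0513 to 0.0638). Msh5 was also called in neo/neo against +/- (0.58, adjusted p = 0.0317), which ended without any single +/- library, neo/neo 1 or neo/neo 2 (0.0512 to 0.1102). Between neo/- and neo/neo 0 of the 39 were called by edgeR, and 6 had an unadjusted p below 0.05. DESeq2 called 0 too, but gave no adjusted p for 24 of the 39.

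At E10.5 Gdf9 showed the largest difference of the called genes. It was at 0.917, 0.836 and 0.608 CPM in Ctrl and at 1.77, 1.89 and 1.87 CPM in cKO, a log2 difference of 1.23 ± 0.19 (SE; adjusted p = 0.00284) that passed in each alternative run. Mybl1, a transcription factor of spermatocytes, was called higher (0.41, adjusted p = 0.0186), as were Msh5 (0.37, 0.0470) and Rbm46 (0.55, 0.0467). Hfm1, a helicase of crossovers (-0.41, 0.0186), and Tex15, needed for meiotic repair and piRNA silencing (-0.39, 0.0418), were called lower. Leaving out any 1 of the 6 libraries ended the calls of Msh5 (adjusted p 0.0530 to 0.122) and Rbm46 (0.0719 to 0.169). The call of Mybl1 ended without cKO 2 or cKO 3 (0.0562 to 0.104), that of Hfm1 without cKO 1 or cKO 2 (0.0555 to 0.0791), and that of Tex15 without Ctrl 1, Ctrl 3, cKO 1 or cKO 2 (0.0787 to 0.166). Rec8, lower in the E12.5 mutants, had 392, 349 and 65 reads in Ctrl and 219, 269 and 237 in cKO, and was not called there. Gdf9, Msh5 and Rbm46 were called higher in both neo/- and cKO. Zcwpw1 was too, but it was picked for its rise and is not counted here. Of all genes tested, 5.48% were called higher in neo/- and 5.75% in cKO. The share called higher in both was not computed, so nothing is read from the overlap. The overlap itself was not tested.

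**Figure D3:**
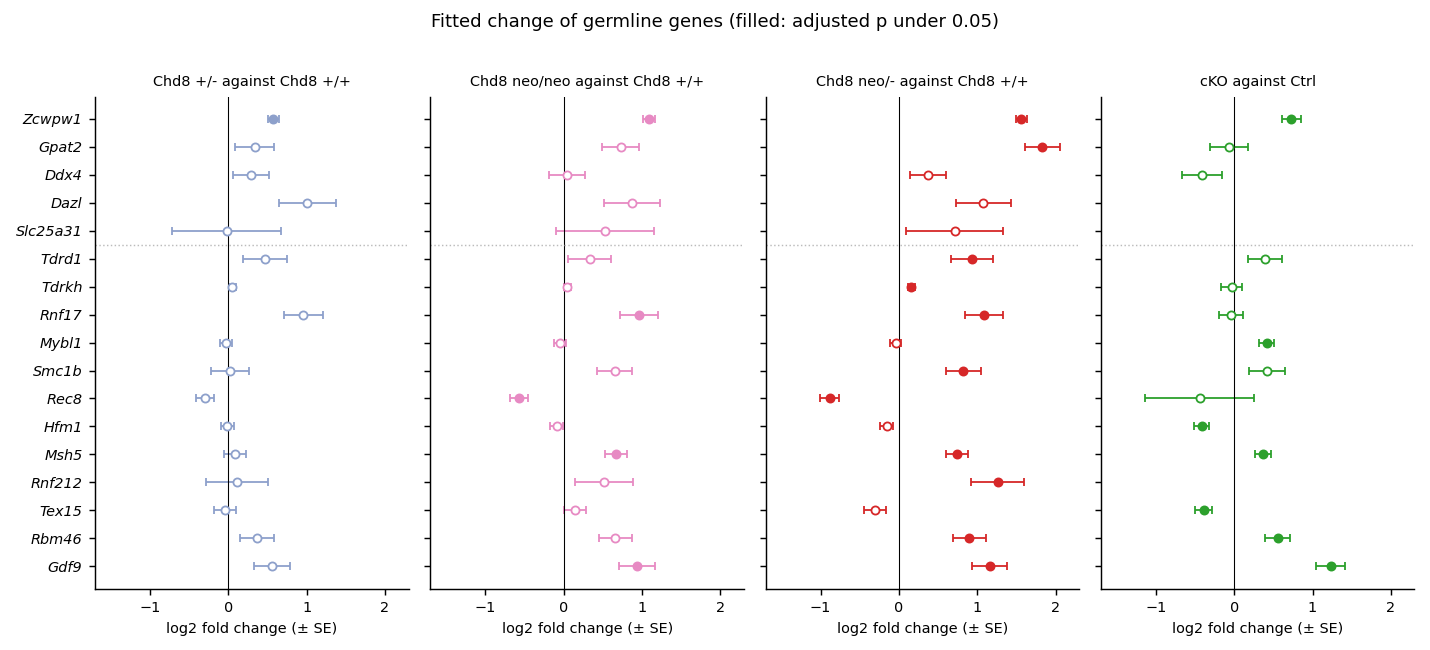
Fitted log2 difference from the controls (± SE, edgeR) of 5 of the 10 genes (above the dotted line) and of the 12 other germline genes called in at least 1 comparison, in 4 comparisons, with filled points at an adjusted p below 0.05. Zcwpw1 moves from 0.58 to 1.56 across the E12.5 panels and to 0.73 in cKO. Gpat2 reaches 1.83 in Chd8 neo/- and -0.06 in cKO, and Rec8 lies below 0 in each panel. Zcwpw1 and Gpat2 were picked for their rise, so their filled points are a description and not a test.

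**Figure D4:**
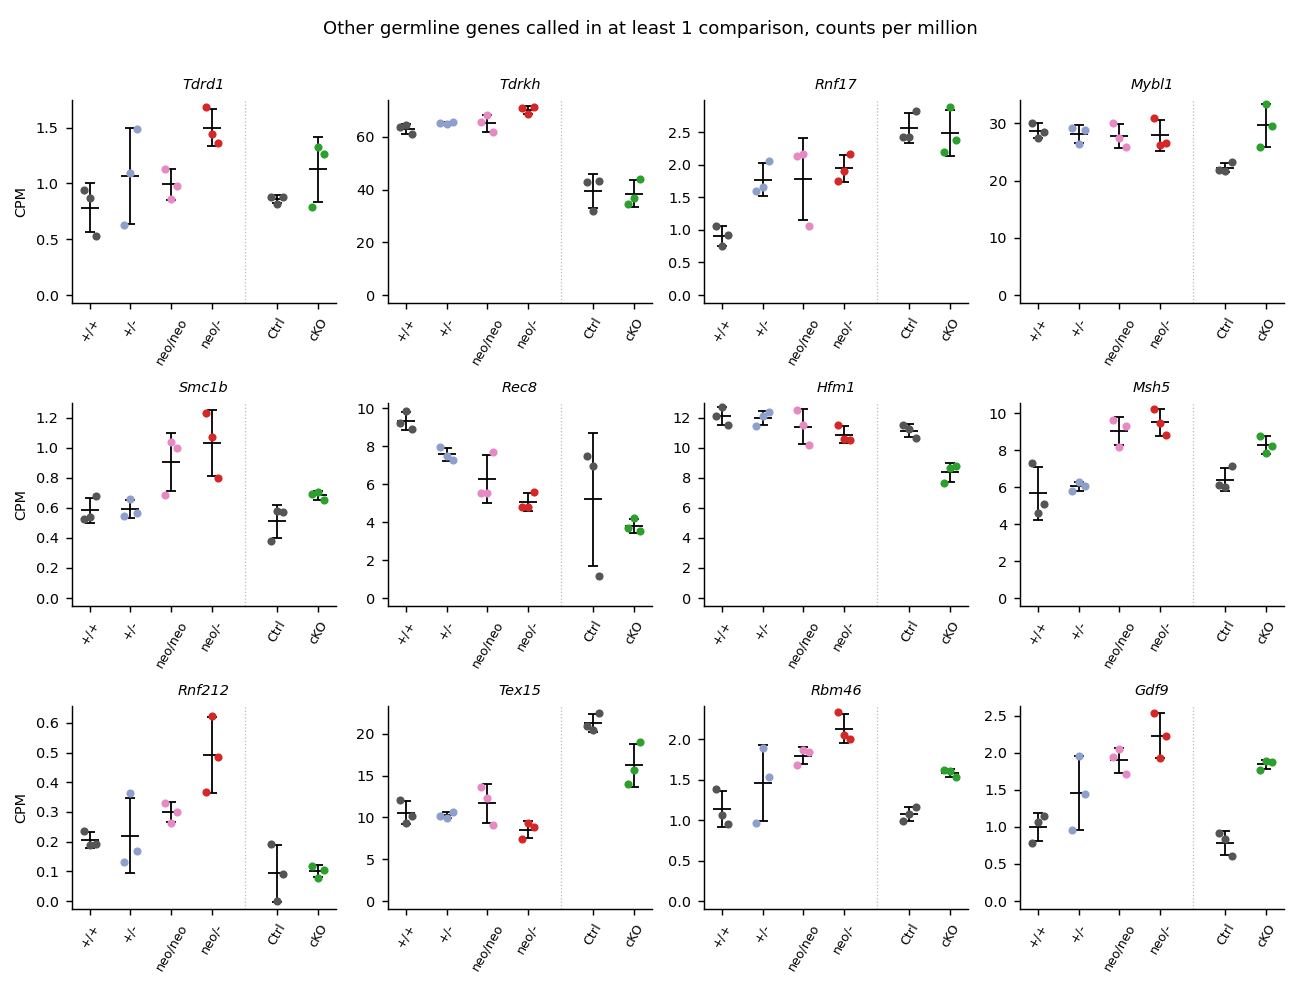
CPM (counts-per-million, TMM-scaled, linear axis from 0, a separate range per gene) in each library of the 12 other germline genes called in at least 1 comparison, with the mean ± SD of 3 libraries per group. Gdf9 lies higher in all Chd8 neo/neo, Chd8 neo/- and cKO libraries than in their controls, and Rec8 lies lower in all 9 E12.5 mutant libraries, with 1 Ctrl library at 1.16 CPM.

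Genes that keep the germ line silent in other cells were measured for comparison. Dnmt3a, a de novo DNA methyltransferase, was called lower in neo/neo (log2 difference -0.35, adjusted p = 0.00164), in neo/- (-0.56, adjusted p = 1.63e-05) and in cKO (-0.26, adjusted p = 0.0205). Mga, which brings PRC1.6 to E-boxes, was called lower in neo/neo (-0.19, adjusted p = 0.00637) and neo/- (-0.26, adjusted p = 0.000446). Against +/- it was lower in neo/neo too (-0.13, adjusted p = 0.0457), as Wdr5 was higher (0.15, 0.0439), and 9 or 10 of the 12 left-out libraries ended these calls (0.0585 to 0.169). In neo/- Dnmt3a and Mga were the only calls by edgeR among the 12 PRC1.6 genes and the 11 genes of DNA and H3K9 methylation, a share that does not exceed the 11.5% of all genes. In neo/neo 16.7% of the PRC1.6 genes and 18.2% of the methylation genes were called, against 8.16% of all genes. In cKO the shares were 16.7% and 27.3%, against 11.4%. Whether these shares stand apart from the background was not tested. In neo/neo Wdr5, a scaffold of chromatin complexes (0.14, adjusted p = 0.0432), and Uhrf1, which maintains DNA methylation (0.25, adjusted p = 0.0406), were called higher, and leaving out any 1 of 8 to 10 of the 12 libraries ended either call (0.0510 to 0.188). In cKO the PRC1.6 subunit genes Pcgf6 (-0.25, adjusted p = 0.0283) and Ring1 (-0.30, 0.0154) and the remodeller gene Hells (-0.22, 0.0301) were called lower, and the H3K9 methyltransferase gene Ehmt2 (0.21, 0.0379) higher. Of these, the call of Ring1 ended without cKO 2 or cKO 3 (0.0554 to 0.101), and that of Dnmt3a in cKO without Ctrl 3, cKO 1 or cKO 3 (0.0534 to 0.0984). That of Pcgf6 ended without Ctrl 2, Ctrl 3, cKO 2 or cKO 3 (0.0673 to 0.145), that of Hells when any library but Ctrl 1 was left out (0.0583 to 0.129), and that of Ehmt2 when any but Ctrl 2 was (0.0628 to 0.157). Whether these differences have a part in those of the germline genes was not tested.

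The nearest tested protein-coding genes on either side of the 10 genes were measured beside them. Of 20 such neighbours, 0 were called by edgeR in any of the 5 E12.5 comparisons. Those with an unadjusted p below 0.05 numbered 0 to 5 per comparison, and DESeq2 called 3 in neo/- against +/+ and 0 in the others. Mepce, 1097 bases from Zcwpw1, had a log2 difference of 0.05 in neo/-, and Fahd2a, 123 bases from Gpat2, one of -0.13. Adra2b, 57978 bases from Gpat2 on the other side, had one of 0.76 in neo/- (unadjusted p = 0.0300, adjusted p = 0.137 by edgeR) and was among the 3 that DESeq2 called. In cKO 2 of the 20 neighbours were called, Il6st next to Ddx4 (0.29) and Intu next to Slc25a31 (-0.27), against 11.4% of all genes. The 12 other germline genes called in some comparison had 24 such neighbours, of which 5 were called in neo/-, against 11.5% of all genes. Crlf2, 779756 bases from Rnf212, was higher there (1.58, adjusted p = 6.30e-05), as was Fam118a, whose annotated span reaches that of Smc1b (0.22, adjusted p = 0.0464). Cenpj (-0.16) and Sdr39u1 (-0.20), the neighbours of Rnf17, and Purg (-0.21), a neighbour of Tex15, were lower. In cKO 3 of 22 tested were called, Crlf2 higher (0.93), and Cenpj (-0.38) and Cdc7 next to Hfm1 (-0.37) lower. Other genes with a pattern across the 12 E12.5 libraries like that of a picked gene were named by Pearson's r of log2 CPM, as a description over libraries that share genotypes and a scaling. For Zcwpw1 these were Anapc15 (r = 0.985), Coq7 (0.980) and Rnf167 (0.980). For Gpat2 they were Sdhaf4 (0.925), Sil1 (0.924) and Pgap2 (0.923). For D1Pas1 they were Srl (0.955), 2010320M18Rik (0.944) and Mcrs1 (0.942), and for Wbp2nl Lipt2 (0.955), Kcnab2 (0.946) and Ccdc150 (0.945).

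The libraries held 38774591 to 61051667 counted reads at E12.5 and 49632937 to 68488879 at E10.5. All 11 forebrain markers were detected at E12.5 (summed 3675 to 4219 CPM) and 10 of 11 at E10.5, where Neurod6 was at 0. Of these, Pax6 and Sox2 were called higher in neo/neo, and Dcx, a gene of young neurons, lower in neo/neo and neo/-. Among markers of germ cells, Dppa3 had 0 reads in all 9 E12.5 mutant libraries and at most 2 in any E10.5 library, and Prdm14 at most 2 reads in any library. The 6 primordial germ cell genes summed to 5.59 to 6.97 CPM in Chd8 +/+ and 5.34 to 6.28 in neo/-. Nearly all of that sum came from Dnd1, Prdm1, Nanos3 and Nanos2, which had reads in every library. Dnd1 was at 2.15 to 2.57 CPM in Chd8 +/+ and 2.40 to 2.64 in neo/-, and Prdm1 at 1.72 to 2.55 and 1.41 to 2.21. Nanos3 was at 0.967 to 1.45 and 0.821 to 1.24 CPM, and Nanos2 at 0.430 to 0.731 and 0.321 to 0.441. Of the 8 markers of gonadal somatic cells, Sox9, which neural progenitors also express, made up nearly all of the sum (111 to 145 CPM in Chd8 +/+ and 123 to 142 in neo/-). Each of the other 7 was at or below 0.696 CPM in every Chd8 +/+ and neo/- library, with Gata4 at 0 in neo/-, and 4 of the 8 had enough reads to be tested at E12.5, so the list measures these cells weakly. The 14 markers of other cell types (blood, vessel, mesenchyme, microglia and epithelial keratins) summed to 3324 to 4118 CPM in Chd8 +/+ and 4299 to 6761 in neo/-. That sum is mostly the embryonic globins Hbb-y, at 1760 to 2203 CPM in Chd8 +/+ and 2241 to 3792 in neo/-, and Hba-x, at 743 to 1005 and 1283 to 2074 CPM, the one marker of the 14 called in neo/-. The vessel gene Pecam1 was at 37.4 to 37.8 CPM in Chd8 +/+ and 40.0 to 45.4 in neo/-. The keratin gene Krt5 was at 0 to 0.0391 and 0.0865 to 0.210 CPM, which rests on only 0 to 2 and 4 to 10 reads per library. In both, as in Hbb-y and Hba-x, all neo/- libraries lay above all Chd8 +/+ libraries, against 16.4% of all genes tested. The other markers of the 14 overlapped between these groups. They were Hbb-bt, the vessel genes Cdh5 and Kdr, the keratin genes Krt8 and Krt18, Col1a1, Col1a2, Col3a1, Cx3cr1 and Csf1r. Kdr, an endothelial receptor, was called lower in neo/neo, and Cdh5, Col1a2, Col3a1 and Cx3cr1 were called higher in cKO. Embryo sex was not balanced between the groups. Reads of Y-linked Ddx3y were near absent in 1 of 3 Chd8 +/+, 1 of 3 +/-, 2 of 3 neo/neo, 0 of 3 neo/-, 2 of 3 Ctrl and 0 of 3 cKO libraries. With Xist, a transcript of female cells, as a covariate, 11 germline genes were called in neo/- in place of 13, the 10 genes included. The part of other cell types in these results was not tested. In tissue RNA, fewer cells with a transcript and less of it per cell cannot be told apart.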

How the data were processed

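RNA-seq was made by the submitters from 18 libraries (36 deposited samples, 2 runs per library), with mRNA selection, dUTP-marked strands and paired 75-base reads. Reads were trimmed with Trim Galore 0.4.1 and aligned with TopHat2 2.1.0, as the study's methods and the submitters' processing notes give them. The authors deposited raw counts per Ensembl gene, made at E12.5 with featureCounts 1.5.0 on GRCm38 without regard to strand and leaving out reads that map to several places or overlap several genes. The options used at E10.5 are not given in the sources used here. Sense and antisense RNA therefore cannot be told apart.

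Runs were summed per library. Of the 46603 gene identifiers, 46005 matched a symbol. Groups came from the labels, and replicates were separate embryos from different litters (E12.5) or separate pools of 2 embryos (E10.5). Genes passing filterByExpr were fitted per stage with edgeR 4.0.16 (TMM, robust quasi-likelihood test, all groups of the stage), adjusted by Benjamini-Hochberg over all genes tested and called at an adjusted p below 0.05. CPM are TMM-scaled. Genes with few control reads are given as ratios of counts with exact 95% intervals, which cover counting error only. The scripts were tested on simulated data. Alternatives were DESeq2 1.42.0, RLE scaling, no filter, a replicate block, either run alone, the compared groups only, Xist as a covariate and leaving out each library. The genes and lists were chosen with earlier results of these data known. Named genes are the 10, their somatic paralogs, every other listed germline or silencing gene called in any of the 6 comparisons, the nearest tested neighbours, the 3 genes most like each picked gene by Pearson's r, and Chd8. Whether replicate numbers might pair libraries was checked by correlating the deviations of each same-numbered pair from their group means. All 3 correlations were above 0.1 only in Chd8 neo/neo against Chd8 +/- (0.108, 0.195 and 0.199), and these are low. No label pairs the libraries, so the numbers are not taken as a known pairing. Promoter windows came from RefSeq (GRCm38.p6), and shared windows of 75 bases were counted in the GENCODE transcripts of GRCm38.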

Additional observations from a re-analysis of the deposited data

How the results depend on the processing

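The counts below are of all listed germline genes called, the 10 included, of 46 tested at E12.5 and 38 at E10.5. They describe how stable the calls were and are not support, since picked genes are among them. Against Chd8 +/+ the counts were 1 in Chd8 +/-, 7 in neo/neo and 13 in neo/-. They were 2 in neo/neo against +/-, 1 in neo/- against neo/neo, and 7 in cKO. Picked genes made up 1 of these in +/-, 3 in neo/neo and 4 in neo/-. They also made up 1 in neo/neo against +/-, 1 in neo/- against neo/neo and 1 in cKO. D1Pas1, Wbp2nl and Rnf212, among the genes called, would not have passed the filter on their Chd8 +/+ libraries alone. With DESeq2 neo/- gave 8: 6 of the 13 genes had no adjusted p there, the other 7 were called, and so was 1 (Stag3) that edgeR did not call. Without the filter, neo/- against neo/neo gave 2. With the replicate block the count was 0 in +/- and 0 in neo/- against neo/neo. This fit moved no other count by over 1.5 times (2 in neo/neo against +/-, where same-numbered libraries correlated weakly). Run 2 alone gave 4 in neo/neo, 8 in neo/-, 1 in neo/neo against +/-, 0 in neo/- against neo/neo and 4 in cKO. With only the 2 compared groups the counts were 0 in +/-, 3 in neo/neo, 1 in neo/neo against +/- and 0 in neo/- against neo/neo. With the Xist covariate neo/- against neo/neo gave 0. Leaving out each library gave 0 to 1 in +/-, 2 to 8 in neo/neo, 9 to 14 in neo/-, 1 to 3 in neo/neo against +/-, 0 to 1 in neo/- against neo/neo and 2 to 6 in cKO. The sign turned only for Gpat2 in cKO, from -0.06 on the log2 scale to 0.060 with run 2 alone, 0.047 without Ctrl 3 and 0.012 without cKO 3 (-0.18 to 0.047 over all left-out libraries). Other causes were not tested. CPM scaled by total counts moved all 53 group means of the 10 genes by less than 1 SD. Depth limits D1Pas1, Wbp2nl, Dazl, Sycp3 and Slc25a31, with under 35 reads in any library, and leaves Mael and Sycp1 unmeasured.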
